A study of Mus musculus with 6 samples.

Results

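The 10 genes described here encode the receptors, co-receptors and first adaptors through which a cell senses endotoxin and related microbial products: Tlr1, Tlr2, Tlr3, Tlr4, Tlr6, Cd14, Ly96, Myd88, Ticam1 and Lbp. They were picked by symbol, and all 10 were found among the 45706 genes of the deposited table and passed the filter on low counts. The RNA came from primary lung fibroblasts of wild-type mice, obtained by collagenase and trypsin digestion of perfused lungs and detached after growth in serum-containing medium. One group of 3 samples is labelled control, and what the control cells received is not given in the labels. The other group of 3 samples received recombinant mouse DKK1, a secreted Wnt antagonist that binds LRP5 and LRP6, at 30 ng/ml for 24 hours. Strain, age and sex of the mice, whether the replicates came from separate animals, and how the detached cells were purified are not given in the sources used here, so p-values measure the spread between these samples, which may be technical.

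Endotoxin, the lipopolysaccharide of Gram-negative bacteria, is carried by LPS-binding protein (Lbp) to CD14, which hands it to MD-2 (Ly96) bound to the receptor TLR4. TLR4 signals through MYD88 to NF-kB and cytokine genes, and through TRIF (Ticam1) to IRF3 and interferon-beta. TLR2 pairs with TLR1 or TLR6 to sense bacterial lipopeptides and uses MYD88, whereas TLR3 senses double-stranded RNA and uses TRIF. Fibroblasts of many tissues express several of these genes, and macrophages express most of them at high level.

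Tlr1 and Tlr6 are neighbouring paralogs on chromosome 5, and their counts have to be read together because part of their coding sequence is the same. The longest identical run between their coding sequences in the GENCODE M21 transcripts (GRCm38) is 229 bases, and 14.7% of all 75-base windows of the Tlr1 coding sequence also occur in Tlr6. Reads that lie wholly within that run, mates included, match both genes equally. The run is printed here in capitals with 30 flanking bases on either side, read 5′ to 3′ on the coding strand. In Tlr1 it covers bases 1468 to 1696 of the coding sequence, at chr5:64925537-64925765 on the minus strand, and in Tlr6 bases 1507 to 1735, at chr5:64953828-64954056 on the minus strand.
Tlr1: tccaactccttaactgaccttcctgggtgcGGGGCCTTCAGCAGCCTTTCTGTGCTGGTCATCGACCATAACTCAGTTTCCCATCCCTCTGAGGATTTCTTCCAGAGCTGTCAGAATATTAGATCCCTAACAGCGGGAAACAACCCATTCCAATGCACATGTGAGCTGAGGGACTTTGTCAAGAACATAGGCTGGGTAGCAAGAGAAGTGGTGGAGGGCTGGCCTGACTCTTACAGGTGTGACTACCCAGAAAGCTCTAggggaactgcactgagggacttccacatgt
Tlr6: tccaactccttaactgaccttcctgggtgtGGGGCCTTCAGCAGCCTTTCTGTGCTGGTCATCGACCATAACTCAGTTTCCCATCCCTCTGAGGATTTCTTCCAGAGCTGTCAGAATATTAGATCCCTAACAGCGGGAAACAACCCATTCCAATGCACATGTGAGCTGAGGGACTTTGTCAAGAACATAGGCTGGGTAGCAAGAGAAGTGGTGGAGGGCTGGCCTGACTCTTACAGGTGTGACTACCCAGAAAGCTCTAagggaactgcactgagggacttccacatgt

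Library totals ranged from 22565917 to 34727102 counts, so a floor of 3 counts equals 0.0864 to 0.133 CPM (counts scaled to the library total). The labelled cell type was checked with 8 fibroblast markers, whose summed level was 10600 to 12100 CPM in control and 9960 to 11500 CPM in DKK1 libraries. Most of that sum is collagen, with control means of 5940 (Col1a1), 2960 (Col1a2) and 1390 CPM (Col3a1). Pdgfra and Pdgfrb averaged 552 and 356 CPM in control, Thy1 73.6, Dcn 40.6 and Lum only 2.12 CPM. Other cells were present as well. The 14 macrophage and myeloid markers were all above 0, and their sum was 444, 510 and 893 CPM in control replicates 1 to 3 and 483, 524 and 924 CPM in DKK1 replicates 1 to 3. Replicate 3 of both groups held 1.87 (control) and 1.84 (DKK1) times the mean myeloid signal of the other replicates, and its endothelial, epithelial and mesothelial marker sums were also the highest of each group. All 4 lymphocyte markers were too low to test. Of 4 neutrophil markers 3 were too low to test, 1 of them at 0 throughout, and S100a8 averaged 1.16 ± 0.462 CPM in the control group against 3.27 ± 0.737 CPM after DKK1 (SD, n = 3 each; edgeR adjusted p = 0.0705 without and 0.000308 with a replicate block). With that block 6 of the 8 fibroblast markers were called as well, 2 higher and 4 lower. Across all genes 131 of 14635 (0.895%) passed an adjusted p under 0.05 without pairing the samples, 0.697% higher and 0.198% lower (edgeR quasi-likelihood test, Benjamini-Hochberg adjustment). When same-numbered samples were paired through a block term, 1379 genes (9.42%) passed, 4.96% higher and 4.46% lower.

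Of the 10 genes 1 passed the test, Cd14, which was higher after DKK1 and encodes the co-receptor that binds lipopolysaccharide for TLR4. Cd14 (ENSMUSG00000051439, chromosome 18, 36725067 to 36726798 on the minus strand) stood at 9.31, 9.09 and 9.54 CPM in the control libraries and at 17.8, 15.5 and 17.3 CPM in the DKK1 libraries. Each DKK1 library was above each control library, and both groups were tight. The means were 9.31 ± 0.222 and 16.8 ± 1.18 CPM (SD, n = 3 each). The fitted log2 fold change was 0.85 (SE 0.08, approximate 95% interval 0.67 to 1.03, edgeR adjusted p = 0.0028). In the blocked fit the log2 fold change was also 0.85 (edgeR adjusted p = 6.08e-06), and the 3 same-numbered pairs gave differences of 0.93, 0.77 and 0.85 on the log2 scale. Its expected counts, 210 to 257 in control and 398 to 539 in DKK1 libraries, were whole in all 6, and its exons overlap no other gene of the table.

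**Figure D1:**
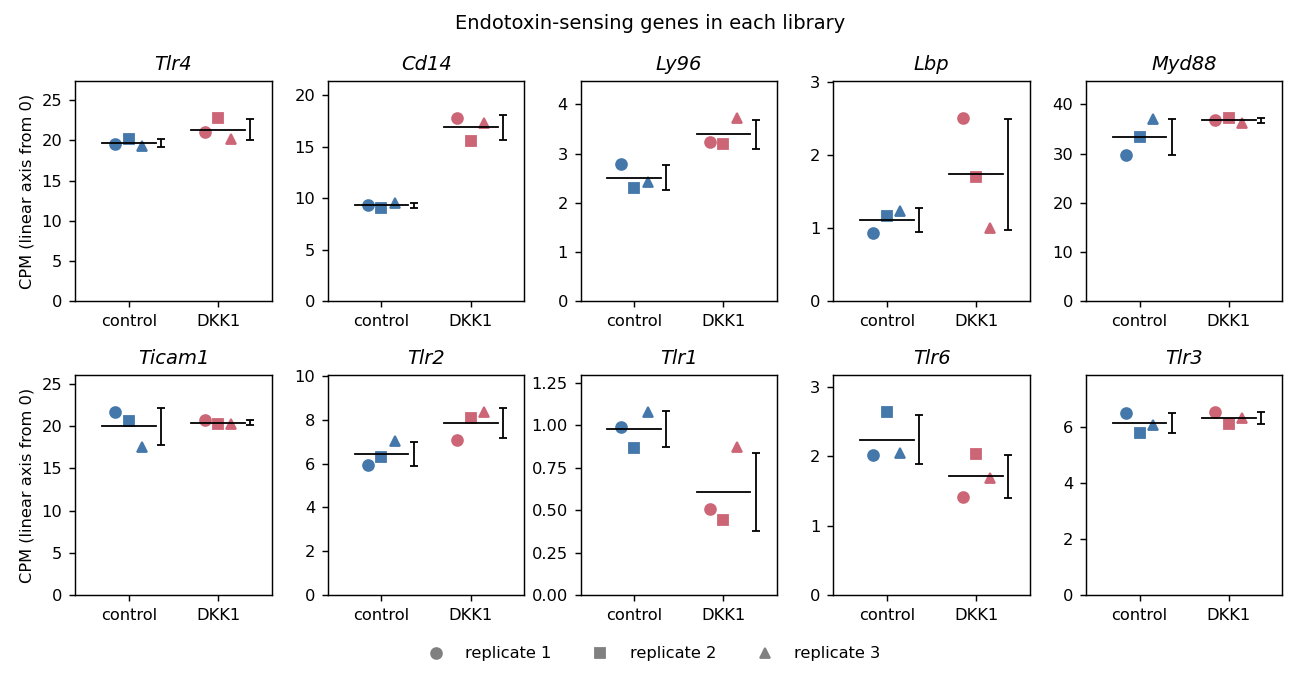
CPM of each of the 10 genes (y axis, linear from 0) in the 3 control and 3 DKK1 libraries; symbols mark the replicate number, horizontal lines the group mean and bars the SD. Cd14 lies at 9.09 to 9.54 CPM in control and 15.5 to 17.8 CPM in DKK1 libraries, whereas the groups of Tlr3, Tlr4, Myd88 and Ticam1 overlap.

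The Cd14 level of each library was set beside its myeloid signal. Control replicate 3, with 893 CPM of myeloid markers, held 9.54 CPM of Cd14, and control replicate 2, with 510 CPM, held 9.09 CPM. Within the DKK1 group Cd14 was 17.8, 15.5 and 17.3 CPM beside myeloid sums of 483, 524 and 924 CPM. Much of the sum is Lyz2, and without that gene it was 113, 113 and 202 CPM in the DKK1 libraries. Replicate 3 had 1.04 times the Cd14 level of the other replicates in both groups, against 1.87 and 1.84 times their myeloid sum. Among single myeloid markers, 9 of the 14 (64.3%) passed in the blocked fit, against 9.42% of all genes, 3 higher (Itgam, Adgre1 and Marco) and 6 lower (Csf1r, Mrc1, Fcgr1, C1qa, C1qb and Cx3cr1). Without the block 0 were called and 6 had an unadjusted p under 0.05 (edgeR). The part of such changes in the Cd14 rise was not tested. In RNA from a mixed culture a different number of cells of a type and a different amount of RNA per cell cannot be told apart.

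**Figure D2:**
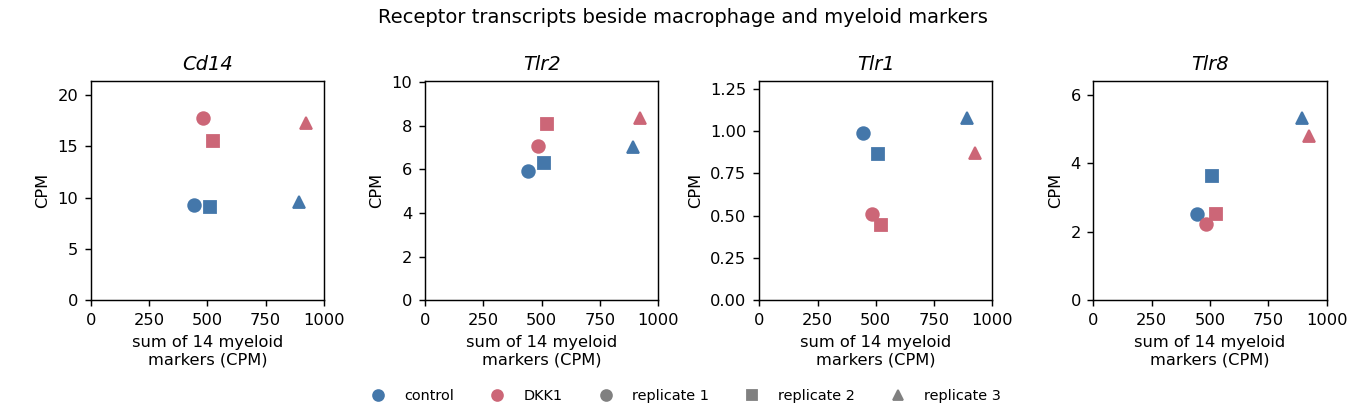
CPM of Cd14, Tlr2, Tlr1 and Tlr8 (y axes, linear from 0) against the summed CPM of 14 macrophage and myeloid markers (x axis) in each of the 6 libraries; colour marks the group and symbol the replicate. Along the x axis Cd14 spans 9.09 to 9.54 CPM in control and 15.5 to 17.8 CPM in DKK1 libraries, and Tlr8 is highest in the 2 libraries with 893 and 924 CPM of myeloid markers.

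The receptor itself, Tlr4, did not pass the test. Tlr4 (ENSMUSG00000039005, chromosome 4, 66827584 to 66930284 on the plus strand) was measured at 19.5, 20.2 and 19.3 CPM in control and 21, 22.8 and 20.2 CPM in DKK1 libraries. The lowest DKK1 library fell among the control values. Its log2 fold change was 0.11 (SE 0.06, approximate 95% interval -0.03 to 0.26, edgeR adjusted p = 0.617 without and 0.251 with the block), so the interval holds no rise as large as that of Cd14.

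Ly96, which encodes the MD-2 subunit that seats lipopolysaccharide on TLR4, was a low transcript, with 55 to 111 counts per library. Ly96 (ENSMUSG00000025779, chromosome 1, 16688051 to 16709611 on the plus strand) read 2.79, 2.30 and 2.43 CPM in control and 3.24, 3.2 and 3.73 CPM in DKK1 libraries. Each DKK1 library was above each control library. The log2 fold change of 0.43 (SE 0.16, approximate 95% interval 0.07 to 0.79) had an unadjusted p of 0.0244 and did not pass after adjustment (edgeR adjusted p = 0.353 without and 0.121 with the block).

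Lbp, the serum protein that carries lipopolysaccharide to CD14, was close to 1 CPM. Lbp (ENSMUSG00000016024, chromosome 2, 158306493 to 158332852 on the plus strand) was at 0.931, 1.17 and 1.24 CPM in control and at 2.51, 1.70 and 0.997 CPM in DKK1 libraries. DKK1 replicates 1 and 2 were above all controls and DKK1 replicate 3, with 23 counts, was among them. The log2 fold change of 0.65 (SE 0.34, approximate 95% interval -0.12 to 1.41, edgeR adjusted p = 0.573) covers both no change and a rise above 2-fold. It ranged from 0.29 to 0.91 when single libraries were left out, with the lower end without DKK1 replicate 1.

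**Figure D3:**
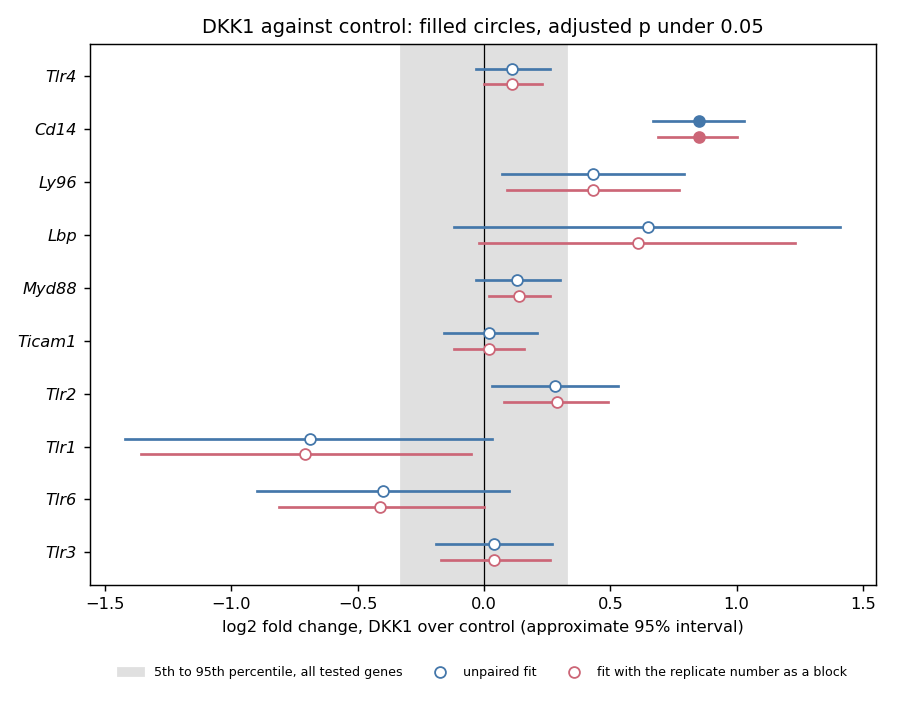
Log2 fold change of DKK1 over control (x axis) for the 10 genes with its approximate 95% interval, in the unpaired (blue) and blocked (red) fit; filled circles passed an adjusted p under 0.05 and the grey band spans the 5th to 95th percentile of all 14635 tested genes. Cd14, at 0.85, is the filled gene in both fits, and Tlr1, Tlr6 and Lbp have the widest intervals.

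Neither adaptor gene passed the test. Myd88 (ENSMUSG00000032508, chromosome 9, 119335934 to 119341411 on the minus strand), the adaptor of all these receptors but TLR3, was found at 29.7, 33.4 and 37.1 CPM in control and 36.8, 37.3 and 36.2 CPM in DKK1 libraries. The DKK1 libraries lay close together around the highest control library, and the groups overlapped. On the log2 scale the difference was 0.13 (SE 0.07, edgeR adjusted p = 0.605 without and 0.167 with the block). Myd88 shares exonic sequence with Acaa1a on the opposite strand and its expected counts were whole in 2 of 6 libraries, so with unstated strandedness its level is uncertain. Ticam1 (ENSMUSG00000047123, chromosome 17, 56269319 to 56276786 on the minus strand), which encodes TRIF, read 21.7, 20.6 and 17.5 CPM in control and 20.7, 20.2 and 20.2 CPM in DKK1 libraries. The groups overlapped, and the log2 fold change was 0.02 (SE 0.08, approximate 95% interval -0.16 to 0.21, edgeR adjusted p = 0.963). Without control replicate 3, the lowest library, its sign turned to -0.07.

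Of the lipopeptide receptors, Tlr2, the shared partner, was modestly higher in the DKK1 libraries but did not pass the test. Tlr2 (ENSMUSG00000027995, chromosome 3, 83836272 to 83841767 on the minus strand) stood at 5.94, 6.30 and 7.02 CPM in control and 7.08, 8.06 and 8.37 CPM in DKK1 libraries. The groups were separated by a narrow margin, between 7.02 and 7.08 CPM, and replicate 3 was the highest in each. The log2 fold change was 0.28 (SE 0.11, approximate 95% interval 0.03 to 0.53, unadjusted p = 0.031, edgeR adjusted p = 0.385 without and 0.0819 with the block). In all, 3 of the 10 genes (Tlr2, Ly96 and Cd14) showed separate groups, each with DKK1 higher. Among all genes tested, 16.5% had separate groups, 9.4% with DKK1 higher and 7.14% with DKK1 lower.

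Tlr1 and Tlr6, the alternative partners of TLR2, were the 2 genes with values below control. Tlr1 (ENSMUSG00000044827, chromosome 5, 64924679 to 64933563 on the minus strand) was listed at 0.990, 0.866 and 1.08 CPM in control and 0.509, 0.443 and 0.869 CPM in DKK1 libraries. DKK1 replicate 3, a library rich in myeloid markers, lay within the control range and the other DKK1 libraries lay below it. Tlr6 (ENSMUSG00000051498, chromosome 5, 64952031 to 64960097 on the minus strand) was listed at 2.02, 2.64 and 2.05 CPM in control and 1.41, 2.03 and 1.69 CPM in DKK1 libraries. The groups touched at one library each, DKK1 replicate 2 and control replicate 1. The log2 fold changes were -0.69 for Tlr1 (SE 0.32) and -0.40 for Tlr6 (SE 0.22), and neither passed (edgeR adjusted p = 0.5 and 0.596 without the block, 0.2 and 0.24 with it).

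Neither gene had a whole expected count in any of the 6 libraries, but the sum of both was whole in all 6 (tolerance 1e-06), with 68, 99 and 71 counts in control and 55, 86 and 59 in DKK1 libraries. The sum, which does not depend on how reads were divided, was 3.01, 3.50 and 3.13 CPM in control and 1.92, 2.48 and 2.56 CPM in DKK1 libraries. Here the groups did not overlap. Tested as 1 feature, a choice made after seeing the counts, the sum had a log2 fold change of -0.48 (SE 0.17, approximate 95% interval -0.88 to -0.08). Its unadjusted p was 0.0233, and it did not pass after adjustment (edgeR adjusted p = 0.348 without and 0.0844 with the block). The level of each gene alone is uncertain.

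Tlr3, the sensor of double-stranded RNA, did not pass the test. Tlr3 (ENSMUSG00000031639, chromosome 8, 45395665 to 45411080 on the minus strand) was at 6.51, 5.80 and 6.09 CPM in control and 6.56, 6.10 and 6.33 CPM in DKK1 libraries. The ranges overlapped between 6.10 and 6.51 CPM, and each of the 3 same-numbered pairs was slightly higher with DKK1. Its log2 fold change was 0.04 (SE 0.10, approximate 95% interval -0.19 to 0.27, edgeR adjusted p = 0.946).

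Counted together, 1 of 10 genes was called in the fit without the block and the same gene with it, against 0.895% and 9.42% of all tested genes. Of the 9 genes not called, 2 had an unadjusted p under 0.05 (Tlr2 and Ly96). DESeq2 and limma-voom each called 1 of the 10 as well, beside 289 and 130 genes in all. The median log2 fold change of the 10 was 0.12, with 8 above 0 and 2 below, beside a median of -0.00091 and 49.6% above 0 over all tested genes.

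Levels of different genes were compared per kilobase, dividing CPM by the mean length of each gene's annotated transcripts. In control libraries Myd88 was the highest at 20.9 ± 2.31 CPM per kb, then Tlr4 at 11.1 ± 0.276, Ticam1 at 6.66 ± 0.720, Cd14 at 5.67 ± 0.135 and Ly96 at 4.35 ± 0.444 CPM per kb (SD, n = 3 each). The lipopeptide and RNA receptors were lower, with Tlr2 at 2.13 ± 0.183, Tlr3 at 1.44 ± 0.0843 and Tlr6 at 1.09 ± 0.167 CPM per kb, and the lowest were Lbp at 0.729 ± 0.105 and Tlr1 at 0.472 ± 0.0518 CPM per kb. No neighbours in this order overlapped over the control libraries, though the gap between Ticam1 and Cd14 was only 1.37 times the larger SD. The places of Myd88, Tlr1 and Tlr6 carry the uncertainty of their levels given above. The order also rests on the length used for Tlr4, whose annotated transcripts range widely. With the longest transcript of 4077 bases in place of the mean of 1773 bases, Tlr4 was at 4.83 CPM per kb. It then came after Ticam1 and Cd14. In DKK1 libraries Cd14, at 10.3 ± 0.716 CPM per kb, stood above Ticam1, at 6.80 ± 0.0969 CPM per kb.

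**Figure D4:**
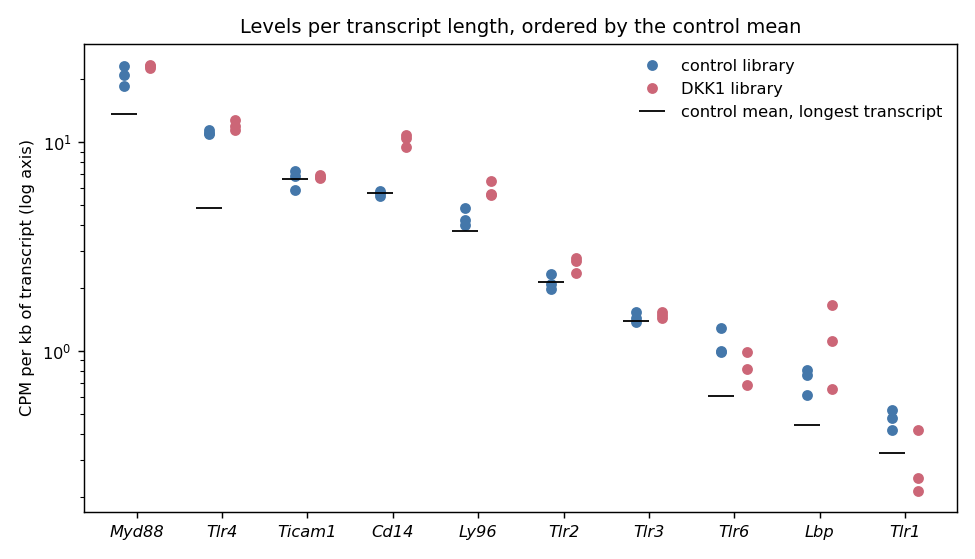
CPM per kb of transcript (log axis) of the 10 genes in control (blue) and DKK1 (red) libraries, ordered by the control mean; horizontal dashes give the control mean if the longest transcript is used as the length. Cd14 is the gene whose DKK1 points leave the control points furthest relative to their spread, and Tlr4 drops from 11.1 to 4.83 CPM per kb with the longer length.

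The ratio of co-receptor to receptor transcripts restates the Cd14 and Tlr4 values, was chosen after they were seen and is given as a description. Cd14 over Tlr4, per length, was 0.517, 0.486 and 0.533 in control and 0.912, 0.736 and 0.923 in DKK1 libraries. The groups did not overlap (two-sided exact permutation p = 0.1, which is the lowest value possible with 3 against 3). Ly96 over Tlr4 was 0.442, 0.350 and 0.387 in control and 0.475, 0.432 and 0.568 in DKK1 libraries, and these groups overlapped (exact permutation test, p = 0.2). Both ratios scale with the transcript length used for Tlr4, which does not alter the comparison between groups.

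The other Toll-like receptors and the chaperones that fold or carry them gave no called gene. Of 13 listed, 10 were tested, and 0 were called by edgeR without or with the block, by DESeq2 or by limma-voom, with 0 at an unadjusted p under 0.05. With 0.895% of all genes called without and 9.42% with the block, 0 of 10 is near the background. Tlr5, the flagellin receptor, was at 1.68, 1.03 and 1.99 CPM in control and 1.71, 1.70 and 1.26 CPM in DKK1 libraries. Tlr7, a sensor of single-stranded RNA, read 3.01, 2.83 and 3.93 CPM in control and 3, 3.2 and 5.12 CPM in DKK1 libraries. Its replicate 3 was highest in each group, at 1.34 and 1.65 times the other replicates. Tlr8 and Tlr13 were also highest there, with 1.73 and 2.33 times in control and 2.02 and 1.47 times in DKK1 libraries. The part of myeloid cells in these values was not tested. Cd180, a TLR4-like receptor, differed by -0.29 on the log2 scale (edgeR adjusted p = 0.829), and Tlr9, the CpG DNA sensor, had at most 7 counts in a library and was not tested.

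The adaptors and kinases that relay the signal gave few calls. Of 22 tested genes 0 were called without the block by edgeR, DESeq2 or limma-voom, with 2 at an unadjusted p under 0.05. Over all genes the share called by edgeR without the block was 0.895%. The block gave 2 calls, both higher (9.09%), near the 9.42% of all genes. These were Ikbke, the kinase that can activate IRF3, from 12.6 ± 0.854 to 16.2 ± 1.07 CPM (SD, n = 3 each; log2 fold change 0.36, edgeR adjusted p = 0.12 without and 0.00812 with the block), and Chuk, a catalytic subunit of the IkB kinase, which differed by 0.13 on the log2 scale (edgeR adjusted p = 0.345 and 0.00598). Tirap and Ticam2, which bridge TLR4 to MYD88 and TRIF, had log2 fold changes of 0.00 and -0.20 (SE 0.05 and 0.28), with Ticam2 at only 0.590 to 0.927 CPM. Irak1, Irak4 and Traf6, the kinases and ubiquitin ligase below MYD88, had log2 fold changes of -0.06, 0.04 and 0.10 (edgeR adjusted p of 0.719 or more).

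Negative regulators moved in one direction among those called. Of 14 tested, 1 was called higher without the block, against 0.895% of all genes called and 0.697% called higher. It was Zc3h12a, an RNase that degrades cytokine transcripts, at 16.4, 14.1 and 16.3 CPM in control and 24.2, 21.4 and 21.6 CPM in DKK1 libraries (log2 fold change 0.52, SE 0.08, edgeR adjusted p = 0.0272). That call was lost without control replicate 1, control replicate 2, DKK1 replicate 1 or DKK1 replicate 2, with adjusted p up to 0.127. With the block 8 of 14 (57.1%) were called, all higher, against 9.42% of all genes called and 4.96% called higher. Nfkbia, one of the 8, and Tnfaip3 also belong to the list of NF-kB outputs. They included Socs3, an inhibitor of cytokine receptor signalling (log2 fold change 0.58, edgeR adjusted p = 0.0918 without and 2.73e-05 with the block), Usp18 (0.77, adjusted p = 0.172 and 0.0444) and Il1rl1, the IL-33 receptor (0.50, adjusted p = 0.7 and 0.000124). Il1rl1 was called in no alternative but the block, and without it the log2 fold change ran from 0.08 without DKK1 replicate 2 to 0.97 without control replicate 2. Irak3, a kinase-like brake on IRAK signalling, stood at 7.84, 7.32 and 6.80 CPM in control and 9.46, 8.98 and 9.19 CPM in DKK1 libraries, with edgeR adjusted p of 0.208 and 0.0382.

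Other genes that handle endotoxin or sense bacteria were called mostly in the blocked fit. Of 14 tested, 0 were called without the block by edgeR or limma-voom, against 0.895% of all genes with edgeR. In that edgeR fit 3 of the 14 had an unadjusted p under 0.05. DESeq2 called 2, both higher, and 289 genes in all (204 higher), against 131 in all with edgeR. With the block 7 (50%) were called, all higher, against 9.42% of all genes called and 4.96% called higher. Among the 7, Hmgb1, Nod1 and Cd36 had log2 fold changes of only 0.09, 0.2 and 0.31. The Cd36 value ran from -0.21 to 0.86 in the unpaired fit with 1 library left out. Aoah, an enzyme that removes fatty acids from lipopolysaccharide and so inactivates it, was at 0.532, 0.601 and 0.795 CPM in control and 1.81, 1.41 and 2.26 CPM in DKK1 libraries. Its groups did not overlap (log2 difference 1.49, edgeR adjusted p = 0.0582 without and 0.00197 with the block). Casp4, which senses lipopolysaccharide inside the cell, was at 2.44, 3.25 and 3.05 CPM in control and 4.88, 6.13 and 4.12 CPM in DKK1 libraries (log2 fold change 0.79, edgeR adjusted p = 0.133 and 0.00279). Itgam and Itgb2, the integrin pair CD11b and CD18, had log2 fold changes of 1.07 and 0.40 (edgeR adjusted p = 7.23e-08 and 2.73e-05 with the block, 0.136 and 0.682 without it). In the unpaired fit the Itgb2 value ran from 0.10 without DKK1 replicate 3 to 0.72 without control replicate 3. Itgam and Itgb2 are leukocyte genes and were highest in replicate 3 of each group. So were Aoah and Cd36, whereas Casp4, Hmgb1 and Nod1 were not. The myeloid markers were highest in replicate 3 as well, and the part of myeloid cells in the result was not tested.

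**Figure D5:**
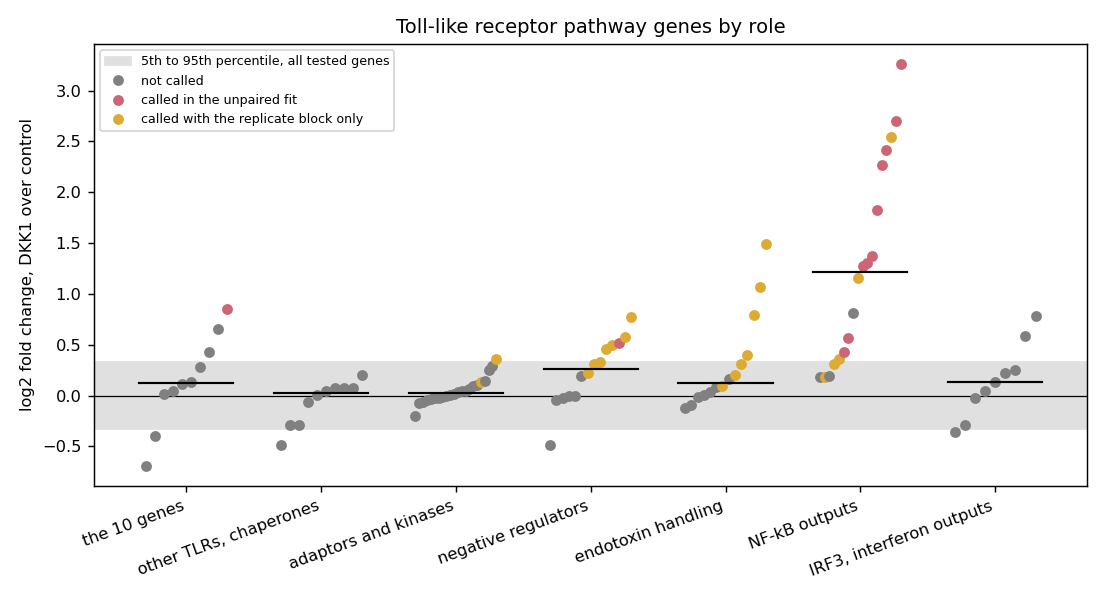
Log2 fold change of DKK1 over control (y axis) of each tested gene, by role; black lines are list medians, colours show whether a gene was called, and the grey band spans the 5th to 95th percentile of all tested genes. The NF-kB outputs have a median of 1.22, and the medians of the other lists lie between 0.02 and 0.26.

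The genes that TLR signalling drives through NF-kB stood highest of the lists, which was known of several of them when the list was drawn up. Of 18 tested, 10 were called, all higher, against 0.895% of all genes called and 0.697% called higher. With the block 15 (83.3%) were called, all higher, against 9.42% and 4.96% of all genes. The median log2 fold change of the list was 1.22. Cxcl3 and Cxcl2, neutrophil chemokines, rose from 0.869 ± 0.463 to 4.68 ± 1.17 CPM and from 0.209 ± 0.165 to 1.37 ± 0.239 CPM (SD, n = 3 each; log2 fold changes 2.41 and 2.70, edgeR adjusted p = 0.0235 and 0.0336). Lcn2, a siderophore-binding protein, rose by 3.26 on the log2 scale (edgeR adjusted p = 0.0255). Cxcl2 and Lcn2 had as few as 2 counts in a control library. Of the 10 called genes, Il6, Cxcl5 and Ccl7 kept their call whichever library was left out, with adjusted p of at most 0.0145, 0.0137 and 0.0321. The other 7 lost it in at least 1 of the 6 fits: Cxcl1 kept it in 5, Ccl2 in 4, Cxcl3 in 3, Lcn2 in 2, and Cxcl2, Ptgs2 and Nfkbiz in 1 each. The Cxcl2 call held only without control replicate 3 (adjusted p up to 0.167 otherwise), and the Lcn2 call only without control replicate 3 or DKK1 replicate 3 (up to 0.12; limma-voom gave 0.0614). The Cxcl3 call was lost without control replicate 1, control replicate 2 or DKK1 replicate 1 (up to 0.128). Their log2 fold changes then ran from 2.37 to 3.47 for Cxcl2, with the upper end without control replicate 3, from 2.82 to 3.65 for Lcn2 and from 2.08 to 2.79 for Cxcl3. Saa3, an acute-phase protein, differed by 2.54 on the log2 scale (edgeR adjusted p = 0.0922 without and 5e-05 with the block). One control library, replicate 3, read 4.02 CPM of Saa3 against 0.931 and 0.566 CPM in the others, and without it the difference was 3.81 (edgeR adjusted p = 0.00484). That library also had the highest myeloid marker sum of the control group, 893 CPM against 444 and 510 CPM. The part of myeloid cells in the values of this list was not tested. The macrophage cytokine genes Tnf and Il1b were low. Tnf was at 0.222 to 0.795 CPM in control and 0.403 to 0.651 CPM in DKK1 libraries, where the groups overlapped. Il1b, too low to pass the filter, had 0, 0 and 6 counts in control and 7, 13 and 13 counts in DKK1 libraries.

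The genes driven through IRF3 and interferon, the TRIF arm of TLR3 and TLR4 signalling, gave no call. Of 14 listed, 9 were tested and 0 were called by edgeR without or with the block, by DESeq2 or by limma-voom, where 2 had an unadjusted p under 0.05 (Rsad2 and Gbp2). Beside 0.895% and 9.42% of all genes, 0 of 9 is also near the background. Their median log2 fold change was 0.13, with 6 above 0 and 3 below. Of the 9, 2 had separate groups, both higher with DKK1, beside 9.4% of all genes. These were Gbp2 (log2 fold change 0.22) and Rsad2 (0.78), the latter with 7 counts in each control library. Ifnb1, interferon-beta itself, had 0 counts in each of the 6 libraries, which allows a level of up to 0.0864 to 0.133 CPM per library. Cxcl10 was at 0.798, 0.814 and 2.16 CPM in control and 1.64, 0.720 and 0.694 CPM in DKK1 libraries, with one high library in each group. Whether the NF-kB and the interferon outputs differ from each other was not tested.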

How the data were processed

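RNA of 6 samples, 3 control and 3 DKK1-treated, was analysed from 1 table of RSEM expected counts per gene that the authors deposited; the unit follows from the table's name and identifier columns and from values of which 9.62% to 10.6% are not whole. The submitters' processing notes name STAR, RSEM, edgeR 4.2.1, GRCm38 and mm10 without their roles; strandedness and annotation release are not given in the sources used here. RSEM divides reads that match several genes, which affects Tlr1 and Tlr6.

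Symbols were found for 45143 of 45706 identifiers. Lengths and positions came from GENCODE M21 (GRCm38), which holds 98.7% of the table's transcripts. Expected counts were rounded, filtered with filterByExpr (minimum count 10; 14635 genes kept), scaled by TMM and tested with edgeR 4.0.16 in R 4.3.3 (quasi-likelihood, two-sided, group as the only term, Benjamini-Hochberg over all tested genes, called at an adjusted p under 0.05). The fit was also run on simulated counts with known changes and a built-in replicate effect, and the outcome is not reported here. SEs are the log2 fold change over the root of F, and intervals are approximate. CPM use whole library totals. Pair differences use log2(CPM + 0.1). The genes nearest to Cd14 in profile are not reported here. Counting floors cover counting error only, and PCR copies are not independent molecules.

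The labels number replicates 1 to 3 in both groups without saying what a number stands for. After group means were subtracted, samples with the same number correlated at 0.27, 0.23 and 0.41 over 14635 genes. A fit with the number as a block is therefore given beside the main fit, which has no block. Blocked values are printed for some of the genes whose call they change. No library was a copy of another (chi-square of 4.9 to 7.63 per degree of freedom within groups).

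Alternatives were DESeq2 size factors, library totals, 2 other filters, the block, each sample left out, DESeq2 1.42.0, limma-voom (limma 3.58.1), unrounded counts and the longest transcript as length. The 10 genes and the lists were chosen with earlier results of these data known. Named were all 10 genes, up to 4 called genes per list and direction, and partners of the 10 by role. A few further list genes were named after their values were seen: Tlr8, Tlr13, Il6, Cxcl1, Cxcl5, Ccl2, Ccl7, Ptgs2, Nfkbiz, Nfkbia, Tnfaip3, S100a8, Tnf, Il1b, Ifnb1, Cxcl10, Rsad2, Gbp2 and the myeloid markers.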

Additional observations from a re-analysis of the deposited data

How the results depend on the processing

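Among the 10 genes, Cd14 kept its direction and its call in all 14 alternatives, with log2 fold changes of 0.81 to 0.90 and adjusted p from 1.12e-09 to 0.0219, and 1 of the 10 was called in each of them. The replicate block changed the call of none of the 10. The other 9 genes were called in none of the 14; their smallest adjusted p was 0.0819 (Tlr2, with the block). Signs turned when 1 library was left out, over ranges of -0.0655 to 0.0855 for Ticam1, -0.231 to 0.213 for Tlr5 (also -0.0622 and -0.065), -0.0679 to 0.342 for Tlr7, -0.533 to 0.053 for Cd180 and -0.0305 to 0.0254 for Tirap (also -0.0167 and -0.00303). Over all genes, 131 calls (102 higher, 29 lower) became 329 without a low-count filter (241 higher, 88 lower), 289 with DESeq2 (204 higher, 85 lower) and 1379 with the replicate block (726 higher, 653 lower), with calls in both directions more numerous with the block; leaving out 1 sample gave 36 (without control replicate 2) to 139 (without DKK1 replicate 3). With the block, calls went from 0 to 2 for adaptors and kinases, 1 to 8 for negative regulators, 0 to 7 for endotoxin handling and 10 to 15 for NF-kB outputs. Negative regulators had 3 calls without the filter and with DESeq2, and 0 to 2 with 1 sample left out. Endotoxin-handling genes had 3 without the filter, 1 with at least 10 counts in every sample and 2 with DESeq2. NF-kB outputs had 4 to 9 with 1 sample left out, the lowest without control replicate 2 or DKK1 replicate 1. The causes were not tested. Counts were low, 13 to 72 per library, for Tlr1, Lbp and Ticam2. The planned fit with at least 10 counts in every sample gave no value for Lcn2, Cxcl2 and Cxcl3.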
